A study of Sus scrofa with 12 samples.

Results

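The 8 genes described here encode chains of the interstitial collagens I, III, V and VI: COL1A1, COL1A2, COL3A1, COL5A1, COL5A2, COL6A1, COL6A2 and COL6A3. They were chosen by name as the rows of these genes in the tables of counts and RPKM (read counts scaled to the length of the gene model and to the mapped reads of the library), and they are 8 of the 19158 gene identifiers measured. Large White sows, mated with 1 boar, were fed an energy-restricted diet (RE) or a normal diet (NE) from mating, and longissimus muscle of their fetuses was taken on day 35, 55 or 90 of gestation (dg). The groups were RE35, RE55, RE90, NE35, NE55 and NE90, each with 1 polyA RNA library and 1 small RNA library. The comparisons ask how restriction changed the transcripts at each stage and how the transcripts changed with stage. With 1 library per condition, a difference between 2 libraries has no replicate check, and whether a library pooled RNA of several fetuses is not stated.

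Interstitial collagens form the fibrils and microfibrils between and around muscle fibers, and fibroblasts of the muscle's connective tissue are their main source. Collagens I and III make the bulk of the fibrils, collagen V starts and limits fibril growth, and collagen VI forms beaded microfibrils close to the basement membrane of the fiber. Mutations of collagen VI genes in humans cause muscular dystrophies of the Bethlem and Ullrich type, and mutations of collagen V genes cause classical Ehlers-Danlos syndrome.

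The mRNA libraries held 11091317 to 12985505 counts. Skeletal muscle was represented in each library by its embryonic myosin MYH3, which had 211853 to 592227 counts. The NE35 library stood apart in carrying transcripts of kidney: the kidney cadherin CDH16 had 1604 counts there and at most 2 in any other library, and the 5 kidney markers in the table (of 6 listed) summed to 192 CPM there (CPM are counts scaled to library depth, here adjusted by the trimmed mean of M values, TMM), against 1.42 to 5.74 CPM in the other 5 libraries. Transcripts of cartilage and bone were highest in RE35. The sums of those lists stand beside the diet comparisons.

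The members lie on chromosomes 12 (COL1A1), 9 (COL1A2), 15 (COL3A1, COL5A2 and COL6A3), 1 (COL5A1), 13 (COL6A2) and an unplaced scaffold (COL6A1) of the Sscrofa10.2 build. Their Ensembl identifiers are ENSSSCG00000017581 (COL1A1), ENSSSCG00000015326 (COL1A2), ENSSSCG00000016034 (COL3A1), ENSSSCG00000005751 (COL5A1), ENSSSCG00000016035 (COL5A2), ENSSSCG00000022506 (COL6A1), ENSSSCG00000028022 (COL6A2) and ENSSSCG00000027331 (COL6A3). Gene model lengths, recovered from the counts and RPKM, were 5090 bases for COL1A2, 4767 for COL3A1, 5837 for COL5A1, 4408 for COL5A2, 3109 for COL6A2 and 9817 for COL6A3. The model of COL6A1 had 1461 bases. The model of COL1A1 had 246 bases, a small part of a procollagen transcript, so its RPKM cannot be set safely against that of the other chains. Comparing its counts between libraries assumes that each library covered this part of the transcript alike, which was not tested.

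The members together took 1.22%, 1.06% and 1.09% of all counts in RE35, RE55 and RE90, against 0.974%, 1.08% and 0.472% in NE35, NE55 and NE90. The Wilson 95% interval of the lowest share, in NE90, was 0.468% to 0.475%. Such intervals cover counting error only, because reads amplified by PCR are not independent molecules. By share of counts, the NE90 library was thus set apart from the other 5, whose shares lay between 0.974% and 1.22%. Such a share also depends on the reads taken by other transcripts. On the TMM scale the members summed to 6142 CPM in NE90 and 7683 CPM in NE35. The sums in RE35, RE55, RE90 and NE55 lay between 10630 and 11430 CPM, so NE35 was low as well on that scale. In bulk tissue, fewer collagen-producing cells and less collagen RNA per cell cannot be told apart.

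By RPKM, which compares genes per length, COL3A1 was the highest of the 7 chains with longer models in every library. Its RPKM was 854, 905 and 866 in RE35, RE55 and RE90, against 709, 811 and 423 in NE35, NE55 and NE90. COL1A2 (202 to 444 RPKM over the 6 libraries) and COL6A2 (143 to 427 RPKM) followed, with ranges that overlapped. COL1A2 was above COL6A2 in 4 libraries, and COL6A2 was above COL1A2 in RE90 and NE55. COL5A2 (43.9 to 200 RPKM), COL5A1 (40.2 to 135 RPKM), COL6A1 (31.4 to 118 RPKM) and COL6A3 (24.5 to 90.1 RPKM) formed a lower set with overlapping ranges. COL6A3 was the lowest chain in 5 of the 6 libraries, and COL5A1 was the lowest in RE90, with 57.7 RPKM. COL1A1 was listed at 997 to 3747 RPKM over its short model.

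COL1A1 encodes the α1 chain of collagen I, the most abundant fibril former. Its TMM-scaled CPM was 518, 336 and 945 in RE at 35, 55 and 90 dg, against 303, 1127 and 338.5 in NE at the same stages. The highest library was thus NE55 and the second highest RE90, and the remaining 4 libraries lay between 303 and 518 CPM. The highest library was 3.72 times the lowest. COL1A2, the α2 chain of the same trimer, had a narrower range. Its CPM was 2227, 1979 and 2224 in RE, against 1671, 2050 and 1420 in NE, so that NE90 was lowest and the highest library was 1.57 times the lowest. COL3A1, which forms homotrimers that join collagen I in thin fibrils, had 4010, 4824 and 4826 CPM in RE, against 3030, 4727 and 2783 in NE. For COL3A1 the 2 libraries of 55 dg were nearly equal, and RE stood above NE at 35 and 90 dg.

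COL5A1 had 766, 884 and 394 CPM in RE at 35, 55 and 90 dg, against 548, 523 and 324 in NE. Both diets were lowest at 90 dg, and RE was above NE at each stage. COL5A2, which pairs with COL5A1 in the main form of collagen V, had 866, 652 and 541 CPM in RE, against 659, 862 and 267 in NE. RE exceeded NE at 35 and 90 dg for COL5A2, and NE exceeded RE at 55 dg.

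COL6A1, COL6A2 and COL6A3 supply the 3 chains of the usual collagen VI trimer. COL6A1 had 170.0, 169.8 and 138 CPM in RE, against 124, 110.2 and 63.3 in NE, with every RE library above every NE library. COL6A2 had 1307, 1105 and 1408 CPM in RE, against 853, 1333 and 615 in NE. COL6A3 had 871, 684 and 874 CPM in RE, against 495, 702 and 332 in NE. COL6A2 and COL6A3 shared an order in which RE was lowest at 55 dg while NE was highest at 55 dg. NE90 was the lowest of the 6 libraries for 7 of the 8 members, all but COL1A1, which was lowest in NE35. By RPKM, which is scaled to mapped reads and not by TMM, NE90 was lowest for all 8, and COL6A1 was higher in NE35 (94.7 RPKM) than in RE90 (80.6 RPKM).

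**Figure D1:**
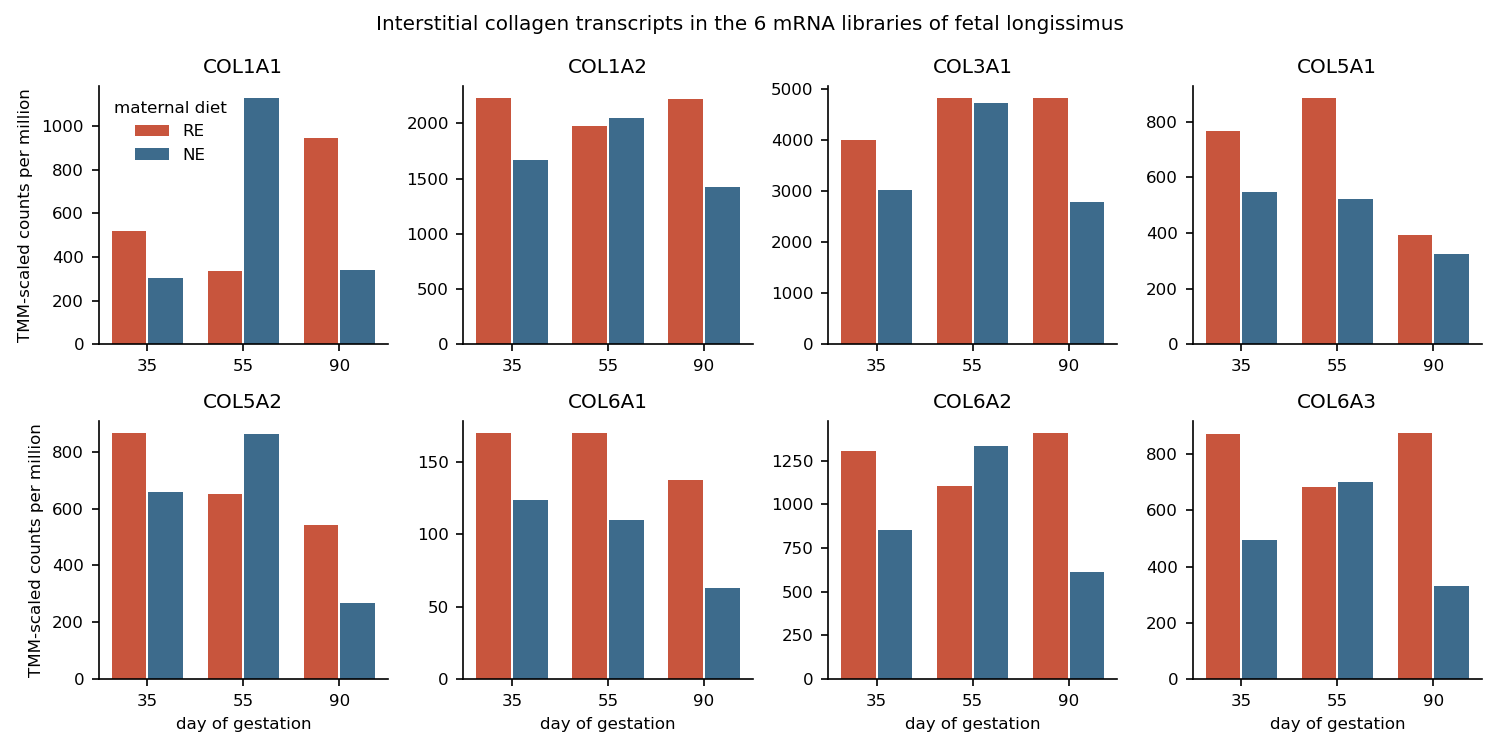
Bars give the TMM-scaled CPM of each gene in the single library of each diet and stage, with RE left of NE at each of the 3 stages. NE90 is the lowest bar in 7 of the 8 panels, and COL1A1 runs from 303 CPM in NE35 to 1127 CPM in NE55.

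At 90 dg all 8 collagen chains were higher in RE90 than in NE90, and 5 of them passed 2-fold. Among the 12426 genes tested in this pair, 10.3% were more than 2-fold higher in RE90 and 54.3% had a log2 ratio above 0. For the members the median log2 ratio came to 1.07, beside 0.08 over all genes tested. COL1A1 had 10654 counts in RE90 and 3326 in NE90, a log2 ratio of 1.48 with a 95% counting interval of 1.43 to 1.54 (2.79-fold). COL6A3 had 9856 counts in RE90 and 3266 in NE90 (log2 ratio 1.39, 1.34 to 1.45). COL6A2 had 15881 counts in RE90 and 6038 in NE90 (1.20, 1.15 to 1.24). The remaining collagen VI chain, COL6A1, had 1552 counts in RE90 and 622 in NE90 (1.12, 0.99 to 1.26). The 3 chains of collagen VI were thus all past 2-fold. COL5A2 had 6100 counts in RE90 and 2621 in NE90 (1.02, 0.95 to 1.09), so its interval and that of COL6A1 included the 2-fold line. COL3A1 had 54415 counts in RE90 and 27342 in NE90, a 1.73-fold difference. COL1A2 had 25080 counts in RE90 and 13956 in NE90, a 1.57-fold difference. COL5A1 had the smallest ratio of the 8, with 4439 counts in RE90 and 3180 in NE90 (log2 ratio 0.28, 0.22 to 0.35). These last 3 chains were short of 2-fold, so the chains of collagens I and V each fell on both sides of it.

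Gene length moved with this comparison. With genes split by model length into 10 classes of like size, the median log2 ratio of RE90 to NE90 was -0.26 in the class of the shortest genes and 0.41 in that of the longest. The 5 members with models of 4408 bases or more stood among genes with medians of 0.25 or 0.41. With the median of genes of like length subtracted, 7 of the 8 members stayed above 0, COL5A1 came to -0.13, and 3 members, not 5, were past 2-fold. The members' median was then 0.88. The 3 members were COL1A1 (1.74), COL6A1 (1.20) and COL6A2 (1.06). The classes follow model length, so COL1A1 was set against the shortest genes, although its model is a small part of its transcript. Its ratio therefore rose with the subtraction, as did that of COL6A1, whose model had 1461 bases. Classes by full transcript length were not tried.

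Markers of other tissues differed between the 2 libraries of 90 dg as well. The 6 cartilage markers (of 6 listed) summed to 48.5 CPM in RE90 and 16.6 CPM in NE90, with the defining MATN1 at 31 counts in RE90 and 0 in NE90. The 3 bone markers in the table (of 7 listed) summed to 13.4 CPM in RE90 and 4.99 CPM in NE90. The 5 fibroblast markers in the table (of 7 listed) summed to 1599 CPM in RE90 and 1987 CPM in NE90, with 2 of the 5 higher and 3 lower in RE90 (median log2 ratio -0.12). The collagen fibril proteoglycan LUM (525 CPM in RE90 and 254 CPM in NE90) and the growth factor receptor PDGFRA (47.1 CPM in RE90 and 25.8 CPM in NE90) were higher. DPT had 249 CPM in RE90 and 839 CPM in NE90, while FAP had 154 CPM in RE90 and 192 CPM in NE90 and DCN had 624 CPM in RE90 and 676 CPM in NE90, so that the lower sum came from DPT. The skeletal muscle markers summed to 69460 CPM in RE90 and 57020 CPM in NE90 (4 of 5 higher in RE90), the smooth muscle markers to 595 CPM in RE90 and 888 CPM in NE90 (1 of 4 higher) and the endothelial markers to 829.9 CPM in RE90 and 835 CPM in NE90 (2 of 4 higher). The part of cell composition in the collagen ratios was not tested.

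At 35 dg all 8 members were again higher in RE35 than in NE35, by smaller ratios. Of the 13001 genes tested in this pair, 52.3% had a log2 ratio above 0. None of the 8 members passed 2-fold, where 12.7% of genes did in 1 direction or the other. The members' median log2 ratio was 0.47, beside 0.03 over all genes. COL6A3 (11623 counts in RE35 and 6963 in NE35, log2 ratio 0.81) and COL1A1 (6907 counts in RE35 and 4254 in NE35, log2 ratio 0.77) had the largest ratios. COL6A2 followed with a log2 ratio of 0.62, and the other 5 members lay between 0.39 and 0.48. The medians of genes of like length reached at most 0.14, and subtracting them left all 8 members above 0. NE35 is also the library that carried the kidney markers given above. The cartilage markers summed to 542 CPM in RE35 and 122 CPM in NE35, and the bone markers to 147 CPM in RE35 and 33.2 CPM in NE35, of which the bone sialoprotein IBSP had 1460 counts in RE35 and 210 in NE35. The fibroblast markers summed to 1558 CPM in RE35 and 1313 CPM in NE35, with 5 of 5 higher in RE35 (median log2 ratio 0.18). The skeletal muscle markers were also higher in RE35 for 5 of 5 (median log2 ratio 0.95), summing to 38690 CPM in RE35 and 20530 CPM in NE35. The smooth muscle markers were higher for 4 of 4 (0.61), with 1034 CPM in RE35 and 617 CPM in NE35, and the endothelial markers were lower for 4 of 4 (-0.61), with 260.2 CPM in RE35 and 418 CPM in NE35. The part of these tissues in the ratios at 35 dg was not tested.

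At 55 dg the members did not move together. Of the 8 members, 1 was more than 2-fold lower in RE55 than in NE55, while 11.7% of the 12536 genes tested were more than 2-fold lower. That member was COL1A1, with 4325 counts in RE55 and 11935 in NE55 (log2 ratio -1.75, 95% counting interval -1.80 to -1.70). COL5A1 was higher in RE55, with 11389 counts in RE55 and 5538 in NE55 (log2 ratio 0.76). COL6A1 was higher as well, with 2188 counts in RE55 and 1167 in NE55 (0.62). COL5A2 (-0.40) and COL6A2 (-0.27) had lower values in RE55, and COL1A2 (-0.05), COL3A1 (0.03) and COL6A3 (-0.04) were within 0.1 of 0 on the log2 scale. The median log2 ratio was -0.04 for the members and about 0 for all genes. In all, 3 of the 8 members were above 0, where 49.9% of genes were. Relative to genes of like length, or with scaling to total counts or by the deposited RPKM, 5 members were above 0 in place of 3, with COL1A2 and COL6A3 changing sides. The fibroblast markers summed to 1726 CPM in RE55 and 2709 CPM in NE55, with 1 of 5 higher in RE55 (median log2 ratio -0.29). Of these sums, LUM made up 193 CPM in RE55 and 957 CPM in NE55 (2491 counts in RE55 and 10140 in NE55). The cartilage markers summed to 32.4 CPM in RE55 and 39.1 CPM in NE55, the skeletal muscle markers to 67750 CPM in RE55 and 65720 CPM in NE55 (1 of 5 higher in RE55), the smooth muscle markers to 1308 CPM in RE55 and 828 CPM in NE55 (3 of 4 higher) and the endothelial markers to 526 CPM in RE55 and 612 CPM in NE55 (2 of 4 higher). The part of these cells in the ratios at 55 dg was not tested.

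**Figure D2:**
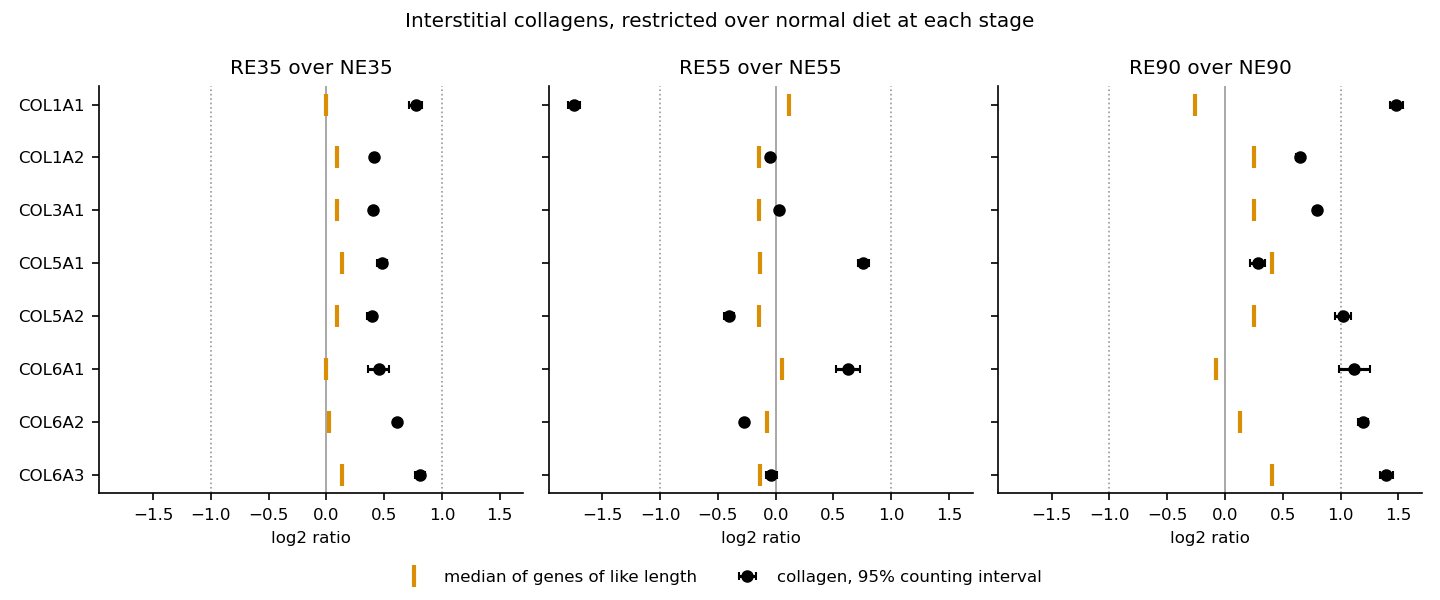
Points give the log2 ratio of RE to NE for each gene at each of the 3 stages, with 95% counting intervals, and orange marks the median ratio of all genes of like length. Dotted lines mark 2-fold. At 90 days 7 points lie right of their length median and COL5A1 (0.28) lies left of it (0.41), while at 55 days COL1A1 stands alone at -1.75.

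Across the 3 stages, edgeR's quasi-likelihood test with stage as a block called 0 of the 8 members between RE and NE at a Benjamini-Hochberg adjusted p under 0.05, as it called 0 of all 12805 genes (0%). At an unadjusted p under 0.05 it gave 303 genes (2.37%), and 1 of the 8 members, COL6A1. For COL6A1 the fitted log2 difference was 0.73 ± 0.30 (SE, 6 libraries, RE above NE at 3 of 3 stages), with an unadjusted p of 0.0314 and an adjusted p of 1 in edgeR's test over all genes. COL6A3 had 0.73 ± 0.38 and COL6A2 0.52 ± 0.40. Without the 2 libraries of 90 dg the values were 0.53 for COL6A1 and 0.38 for COL6A3. With all libraries, the 8 members each had a log2 fold change above 0, between 0.23 for COL1A1 and 0.73. DESeq2's Wald test called 0 of the 8 members, and over all genes 1 higher and 2 lower. The fit has 2 residual degrees of freedom. The diet ratios therefore stand as measured differences between single libraries.

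With stage, the members took different courses in the 2 diets. From 55 to 90 dg, COL1A1 had a log2 ratio of 1.49 in RE and -1.73 in NE. The median log2 ratio of the 8 members over this step was 0.08 in RE and -0.94 in NE, beside -0.02 in RE and -0.09 in NE over all genes. In RE, 5 of the 8 members had a ratio above 0 over this step (49.3% of the 12578 genes tested), with COL6A3 and COL6A2 at 0.35 and COL3A1 at 0.00. Within that diet, COL5A1 was the 1 member more than 2-fold lower, at -1.17, where 8.86% of genes were more than 2-fold lower, and COL1A1 was the 1 member more than 2-fold higher, where 9.84% of genes were. In NE, all 8 members were lower at 90 than at 55 dg, where 54.5% of the 12445 genes tested were lower. Of these, 4 members (COL1A1, COL5A2, COL6A2 and COL6A3) were past 2-fold, where 13.2% of genes were. COL5A2 came to -1.69, COL6A2 to -1.12 and COL6A3 to -1.08 in NE. Subtracting the median of genes of like length left all 8 members below 0 in NE, 2 of them past 2-fold.

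From 35 to 55 dg, none of the 8 members passed 2-fold in RE, where 7.50% of the 12674 genes tested passed it upward and 8.47% downward. COL1A1 passed it in NE with a log2 ratio of 1.90, where 15.6% of the 13150 genes tested passed it upward. The members' median was -0.21 in RE and 0.44 in NE, beside 0.01 in RE and -0.04 in NE over all genes. In RE, 2 of the 8 members, COL3A1 (0.27) and COL5A1 (0.21), were above 0, where 50.5% of genes were, and the counting interval of COL6A1 (-0.09 to 0.08) included 0. In NE, 6 of the 8 members were above 0, where 48.2% of genes were, and COL5A1 (-0.07) and COL6A1 (-0.17) were below. Scaling to total counts turned 2 of those 6 members, COL1A2 and COL5A2, to the other side of 0 in NE. The NE steps share the NE55 library and the RE steps share RE55, so a high or low value in that library enters both steps with opposite sign.

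Between 35 and 90 dg, COL5A2 had a log2 ratio of -1.31 in NE, the 1 member past 2-fold there, where 20.5% of 13102 genes were more than 2-fold lower. With scaling to total counts or by RPKM, 5 members were more than 2-fold lower in place of 1, as were 5519 genes with total counts and 3422 by RPKM, against 2680 with TMM. None of the 8 members passed 2-fold in RE over this span, where 26.3% of 12770 genes did, and 1 member did with total counts or by RPKM. COL5A1 and COL5A2 had log2 ratios of -0.96 and -0.68 in RE, and COL5A1 had -0.76 in NE, so both collagen V chains were lower at 90 than at 35 dg in both diets. COL1A1 had 0.87 in RE and 0.16 in NE. The sign of the NE value changed with the scaling: it was -0.56 with total counts, where the median of all genes was -0.80 in place of -0.09, -0.46 by RPKM and -0.01 after subtracting the median of genes of like length. These other scalings of the steps between stages were chosen after seeing the data. Marker sums also differed between these stages. Cartilage markers had 542 CPM in RE35 and 122 CPM in NE35, against 48.5 CPM in RE90 and 16.6 CPM in NE90. Bone markers had 147 CPM in RE35 and 33.2 CPM in NE35, against 13.4 CPM in RE90 and 4.99 CPM in NE90. The 4 skin epithelium markers in the table (of 6 listed) had 81.3 CPM in RE35 and 121 CPM in NE35, against 56.8 CPM in RE90 and 36.1 CPM in NE90. The part of other tissues in the stage steps was not tested.

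**Figure D3:**
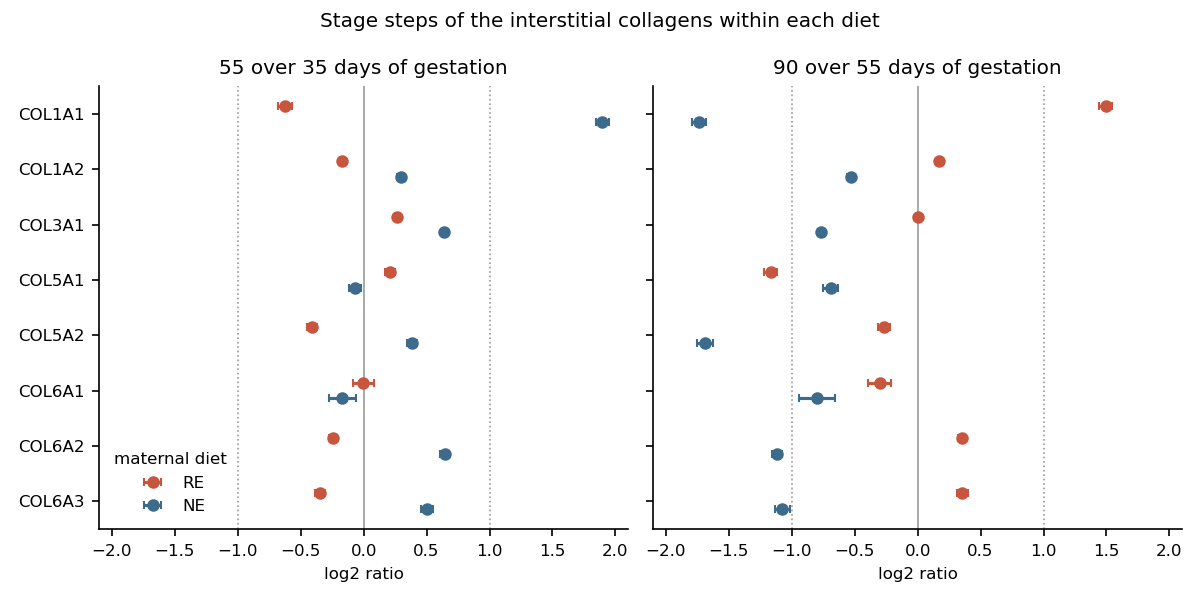
Points give the log2 ratio of each gene for 55 over 35 and for 90 over 55 days of gestation, for RE above NE in each row, with 95% counting intervals and dotted lines at 2-fold. COL1A1 has -0.62 in RE and 1.90 in NE over the first step and 1.49 in RE and -1.73 in NE over the second.

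When both diets were taken as replicates of a stage, edgeR's quasi-likelihood test called 0 of the 8 members at an adjusted p under 0.05 in each of the 3 stage contrasts. It called 1.94% of 12805 genes between 55 and 35 dg, 0% between 90 and 55 dg and 7.23% between 90 and 35 dg. DESeq2 called 0 of the 8 members in these contrasts as well, and over all genes 31 higher and 13 lower between 90 and 55 dg. At an unadjusted p under 0.05, edgeR gave 684 genes (5.34%) between 90 and 55 dg, COL5A1 among them. The fitted difference of COL5A1 was -0.93 ± 0.41 there (log2 scale, SE, lower in 2 of 2 diets, unadjusted p 0.0443, adjusted p 0.929 in edgeR). COL5A2 had -0.99 ± 0.47. Without NE90, the library with the lowest collagen share, COL5A1 had -1.10 and COL5A2 -0.48 in this contrast, and without NE55 COL5A2 had -0.42. Between 90 and 35 dg, COL5A2 had -0.95 ± 0.46 and COL5A1 -0.86 ± 0.41, with edgeR adjusted p of 0.264 and 0.258. COL1A1 had 0.93 ± 0.67 between 55 and 35 dg, the largest standard error of the 8 in that contrast. Without the RE55 library, edgeR called COL1A1 higher at 55 than at 35 dg (log2 difference 2.08, adjusted p 0.0138), and without NE55 its fitted value was -0.81 (adjusted p 0.73), while the genes called higher went to 878 without RE55, against 147 with all 6 libraries. In these fits the 55 dg arm is 1 library, NE55 or RE55, which is assumed to vary like the other stages, and NE55 is the library highest in COL1A1. Without NE35, the library with kidney transcripts, edgeR called 0 of the 8 members in each stage and diet contrast, and 0 had an unadjusted p under 0.05.

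Ratios between chains of 1 collagen type do not depend on how libraries are scaled. They can still shift where libraries differ in how genes of different length are counted, and they were not corrected for length. The ratio of COL1A2 to COL1A1 counts was 4.30, 5.90 and 2.35 in RE at 35, 55 and 90 dg, against 5.52, 1.82 and 4.20 in NE. It thus spanned 3.24-fold over the 6 libraries, with NE55 and RE90 lowest and RE55 highest, and the counting intervals were narrow beside that span (1.78 to 1.86 in NE55). The ratio of COL3A1 to COL1A2 spanned 1.35-fold over the 6 libraries, from 1.80 in RE35 to 2.44 in RE55.

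In collagen V, the ratio of COL5A2 to COL5A1 counts was 1.13, 0.738 and 1.37 in RE at the 3 stages, against 1.20, 1.65 and 0.824 in NE. The ratio was near the same value in both diets at 35 dg, lower in RE at 55 dg and higher in RE at 90 dg. In collagen VI, COL6A2 to COL6A3 was 1.50, 1.62 and 1.61 in RE, against 1.72, 1.90 and 1.85 in NE, so the 3 RE libraries lay below the 3 NE libraries. The median RE to NE log2 ratios of genes as long as COL6A2 were 0.02, -0.08 and 0.13 at 35, 55 and 90 dg. For genes as long as COL6A3 they were 0.14, -0.14 and 0.41. The part of gene length in the chain ratio was not tested. COL6A1 to COL6A3 was 0.195, 0.248 and 0.158 in RE, against 0.250, 0.157 and 0.190 in NE. The COL6A2 to COL6A3 ratio spanned 1.27-fold over the libraries, the narrowest of the chain ratios computed.

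**Figure D4:**
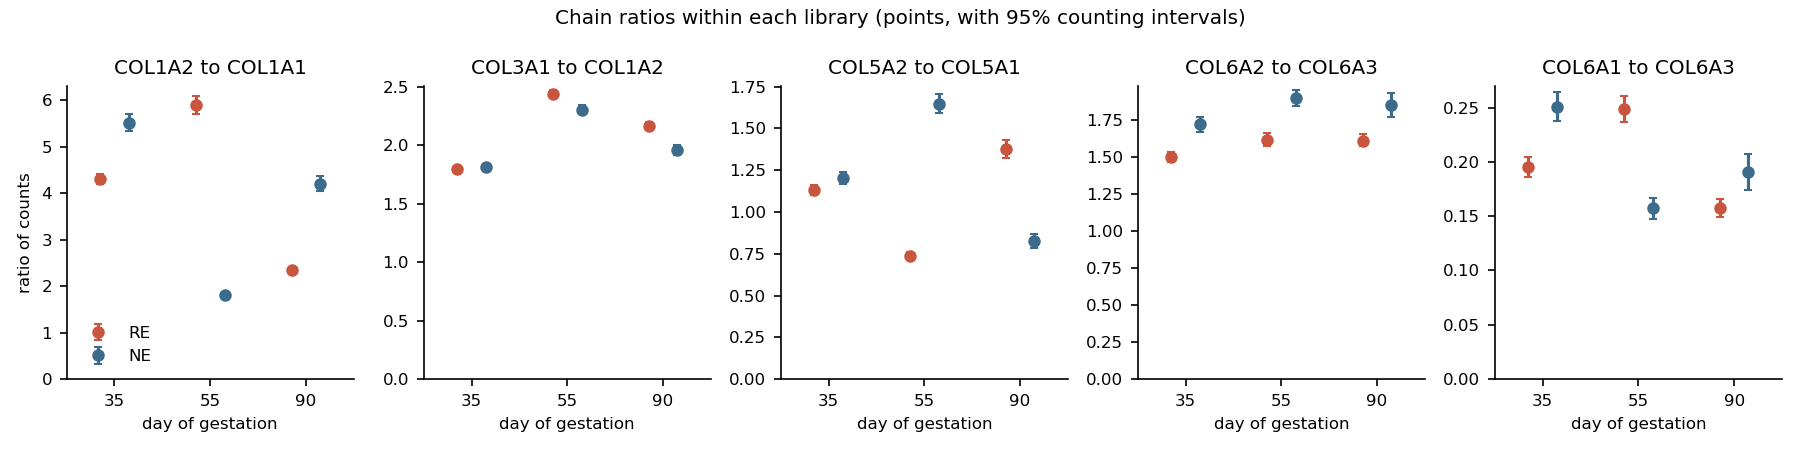
Points give the ratio of counts of 2 collagen chains within each library, with 95% counting intervals, for RE left of NE at each of the 3 stages. COL1A2 to COL1A1 ranges from 1.82 in NE55 to 5.90 in RE55, and COL6A2 to COL6A3 lies between 1.50 and 1.90.

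The machinery that makes and matures fibrillar collagen was followed through lists chosen by function. Not every listed gene was matched to the table, and SERPINH1, P4HB, PPIB, CRTAP and LOXL2 were among those missing. Prolyl and lysyl hydroxylases and export factors prepare the chains in the endoplasmic reticulum, procollagen proteinases cut off the propeptides outside the cell, and lysyl oxidases cross-link the fibril. In edgeR's test between RE and NE over all stages, 12 modification genes (of 18 listed), 6 cleavage genes (of 7) and 4 cross-linking genes (of 5) were tested. In each of these lists, 0 genes passed an adjusted p under 0.05. Their medians were 0.31, 0.44 and 0.28 on the log2 scale, beside -0.01 over all genes tested. Ratios of these and the following lists were not corrected for gene length.

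At 90 dg the 4 lysyl oxidases measured all had more CPM in RE90 than in NE90, 3 of them past 2-fold, and their median log2 ratio was 1.20. LOX, the founding lysyl oxidase, had 113 counts in RE90 and 35 in NE90 (log2 ratio 1.45), and LOXL4 had 368 counts in RE90 and 133 in NE90 (1.26). At 35 dg 1 of the 4 and at 55 dg 2 of the 4 were higher in RE, and LOX had 66 counts in RE55 and 148 in NE55. All 6 cleavage genes were above their NE90 level in RE90 (median 0.71), among them ADAMTS14, a procollagen N-proteinase, with 118 counts in RE90 and 51 in NE90 (0.99). TLL1 had 12 counts in RE90 and 2 in NE90.

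Of the 12 modification genes, 7 had a positive ratio at 90 dg, and the list's median of 0.04 was below that of all genes (0.08). The lysyl hydroxylase PLOD2 had 94 counts in RE90 and 28 in NE90, and MIA3, which loads procollagen into export carriers, had 3629 counts in RE90 and 1729 in NE90 (0.87). At 55 dg the order of the lists differed: the modification genes had a median of 0.65, with 9 of 12 higher in RE55, while the cross-linking genes had -0.60. In the turnover list, the gelatinase MMP2 had 12922 counts in RE55 and 5950 in NE55 (0.84) and the membrane protease MMP14 had 11121 counts in RE55 and 5703 in NE55 (0.68). At 90 dg 2 of the 3 turnover genes tested were higher in RE90, MMP2 with a log2 ratio of 0.21 and the collagen uptake receptor MRC2 with 0.57. MMP14 was lower there, with -0.21. The collagenases MMP1 and MMP8 were at 0 counts in all 6 libraries, and the collagenase MMP13 had 3 to 10 counts.

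Among other collagens, the list of interstitial and fibril-associated collagens (8 in the table, of 10 listed) also held the membrane collagen COL13A1. The 7 genes of that list tested at 90 dg all had positive ratios, none past 2-fold, and their median was 0.48. COL6A5, 1 of the 7, had only 15 counts in RE90 and 8 in NE90. COL16A1 (0.76) and COL13A1 (0.72) had the largest ratios of that list. The 2 basement membrane collagen genes in the table (of 6 listed) were past 2-fold, with COL4A2 at 14213 counts in RE90 and 5299 in NE90 and COL15A1 at 1140 counts in RE90 and 489 in NE90. The 5 cartilage collagens tested were all past 2-fold, with COL9A2 at 243 counts in RE90 and 17 in NE90 (3.52) and COL9A1 at 150 counts in RE90 and 13 in NE90 (3.18). COL11A1, which is closely related to the collagen V chains and can mix with them, had 888, 160 and 345 CPM in RE at 35, 55 and 90 dg, against 438, 488 and 94.4 in NE.

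With stage, edgeR called COL5A3, the third chain of collagen V, higher at 55 than at 35 dg (log2 fold change 1.64 ± 0.37, adjusted p 0.0444). COL5A3 had 87.0 and 306 CPM in RE35 and RE55, against 62.8 and 172 CPM in NE35 and NE55. Whether it differed from COL5A1 and COL5A2 in this was not tested. Between 90 and 35 dg, edgeR called LOXL1 (-1.50 ± 0.39, adjusted p 0.0404) and the membrane collagen COL13A1 (-1.70 ± 0.45, adjusted p 0.0409) lower and COL15A1 higher (2.17 ± 0.41, adjusted p 0.00964). COL8A1 was called lower as well (adjusted p 0.0311), with 37 counts in RE35 and 17 in NE35 and 0 in both libraries of 90 dg. The cartilage collagens COL9A1, COL9A2 and COL2A1 were called lower at 90 than at 35 dg, and COL9A1 and COL9A2 lower at 55 than at 35 dg.

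Collagen receptors and the TGF-beta pathway, a main inducer of collagen transcription in fibroblasts, had median log2 ratios of 0.36 and 0.49 at 90 dg, beside 0.08 over all genes. By class of gene length, the medians in this pair ran from -0.26 (shortest genes) to 0.41 (longest genes). The part of gene length in the list medians was not tested. Of the 8 receptor genes tested at 90 dg, 6 were higher in RE90, none past 2-fold, with the collagen receptor kinase DDR2 at 0.74 and the collagen-binding ANTXR1 at 0.57. The 2 lower were ITGB1, with 469 CPM in RE90 and 598 CPM in NE90, and ANTXR2, with 59.5 CPM in RE90 and 67.4 CPM in NE90. The 10 receptor genes in the table summed to 920 CPM in RE90 and 954 CPM in NE90. Of the 8 genes tested in the TGF-beta list, 6 were higher in RE90, and CTGF, a matrix protein induced by TGF-beta, passed 2-fold with 1328 counts in RE90 and 537 in NE90. The ligand TGFB1 had 324 counts in RE90 and 153 in NE90 (0.88). The 2 genes lower in RE90 were the ligand TGFB3, with 689 counts in RE90 and 989 in NE90, and SMAD2, with 270 counts in RE90 and 402 in NE90. In edgeR's stage and diet contrasts 0 genes of either list passed an adjusted p under 0.05.

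**Figure D5:**
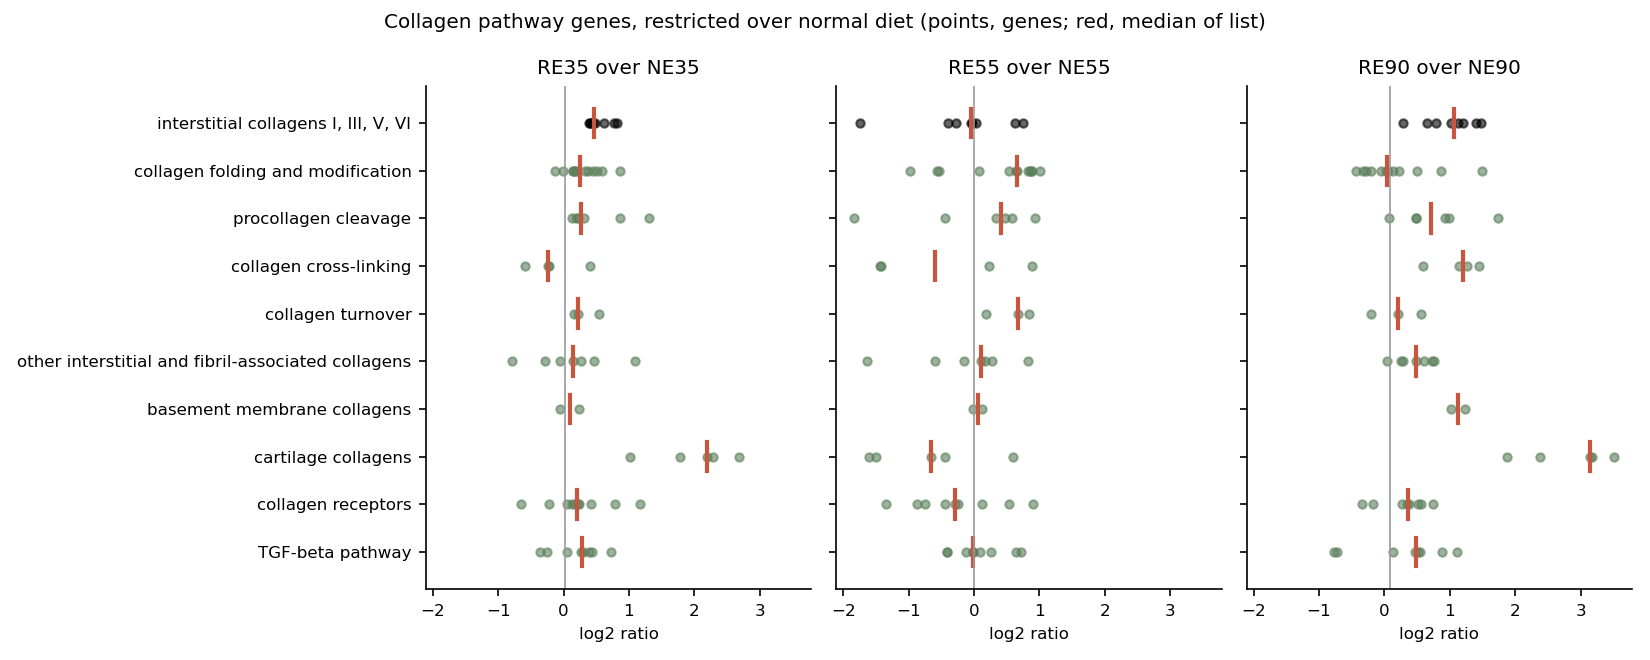
Each point is a gene of a functional list, placed at its log2 ratio of RE to NE at each of the 3 stages, with the list's median in red and the median of all genes tested as a grey line. At 90 days the interstitial collagens have a median of 1.07, the cross-linking genes 1.20 and the cartilage collagens 3.14.

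The profiles of the members over the 6 libraries were alike to different degrees, as a description over points that share depth and scaling. COL1A2 and COL6A3 had a Pearson r of 0.997 (log2 CPM, 6 libraries), COL1A2 and COL6A2 0.985, and COL6A2 and COL6A3 0.977. COL1A1 had an r of -0.20 with COL5A1 and 0.65 with its partner chain COL1A2. Set against the mean profile of all 8, COL6A2 was nearest (root mean square difference 0.09 in log2 CPM) and COL5A1 (0.41) and COL1A1 (0.60) were farthest.

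Among 6963 genes with a symbol and a mean of at least 5 CPM, the 5 genes outside the list nearest to the mean profile were TBPL1, PDZRN3, SEC14L1, DVL3 and SEC24A, with root mean square differences of 0.08 to 0.11 and r of 0.96 to 0.98. None of these 5 encodes a collagen. The small RNA libraries held miR-29a, of a family known in mouse and human to repress collagen mRNAs, at 104, 143 and 282 TPM (reads scaled to the miRNA reads of the library) in RE at 35, 55 and 90 dg, against 467, 258 and 232 TPM in NE. The related miR-29b and miR-29c had 3.12 to 8.54 and 11.3 to 21.7 TPM over the 6 libraries.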

How the data were processed

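The authors measured polyA RNA and small RNA of fetal longissimus muscle in 6 libraries each, 1 per diet and stage. Reads were trimmed, aligned with TopHat2 to Sscrofa10.2 and those with several genome locations discarded by the authors, who deposited counts per gene, not normalized. The deposited RPKM are scaled by the authors to uniquely mapped reads and model length. The deposited TPM of miRNAs are scaled by the authors to the table's miRNA reads (1522142 to 3811231 per library). Columns named SE were read as RE, and 0 columns matched no sample.

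Symbols were matched for 11234 identifiers, 11010 through a reference table and 224, COL1A1 among them, through the study's sheet of genes differing between NE and RE. These 224 identifiers, COL1A1 included, had a symbol here only because the study had listed them as differing by diet in these same data. Identifiers without a symbol stayed in the fits and in the shares over all genes. They were left out of the named lists and of the comparison of profiles. Counts were fitted with edgeR 4.0.16 (quasi-likelihood, TMM, stage plus diet, at least 1 CPM in at least 2 libraries, Benjamini-Hochberg over 12805 genes), with 2 residual degrees of freedom. All 8 members passed this filter. Pairs of libraries were compared as log2 ratios of CPM (TMM, prior count 2), over genes with at least 1 CPM in either, with exact conditional binomial 95% intervals, which cover counting error only, and no test. DESeq2 1.42.0, RLE factors, total counts, RPKM with a pseudocount of 1, a prior count of 0.5, no filter, subtraction of the medians of 10 classes of model length, and leaving out each library or stage were alternatives. The code was tested on counts simulated with the fitted spread, with 200 genes changed at 55 dg. Between 55 and 35 dg, edgeR found 1 of 200 genes changed 2-fold and 157 of 200 genes changed 4-fold. Other contrasts were not simulated. The absence of calls among the members with all libraries therefore does not show that they were unchanged. Named genes of a functional list are those called, or else the 2 with the largest change in the comparison described, and markers of cell types are named where they stand beside a result. COL11A1, COL6A5, ITGB1, ANTXR2, MMP1, MMP8 and MMP13 were named after their values were seen. The members and lists were chosen with earlier results of these data known.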

Additional observations from a re-analysis of the deposited data

Results flagged for a closer look

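COL1A1 moved past 2-fold in opposite directions at 2 stages: its log2 ratio was -1.75 for RE55 against NE55 and 1.48 for RE90 against NE90. Over the step from 55 to 90 dg it likewise went in opposite directions in the 2 diets, with a log2 ratio of 1.49 for RE90 against RE55 and -1.73 for NE90 against NE55. These 4 ratios rest on the same 4 libraries, with 4325 counts in RE55, 11935 in NE55, 10654 in RE90 and 3326 in NE90, and the difference between the stages or diets was not tested. They also rest on the short model of COL1A1, and whether the libraries covered that part of the transcript alike was not tested. The row of COL1A1 was identified through the study's sheet of genes differing by diet, so its diet ratios are not independent of that choice.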

How the results depend on the processing

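The diet contrast was fitted with stage as a block, and replicate numbers pair no libraries, since each condition has 1. The members past 2-fold in RE90 against NE90 numbered 5, and 3 after subtraction of the median of genes of like length, 4 with RLE factors, and 6 with total counts or RPKM. The members called between 55 and 35 dg numbered 0 to 1 when libraries were left out in turn, the 1 being COL1A1 without RE55, and the log2 fold change of COL1A1 in that contrast ran from -0.81 without NE55 to 2.08 without RE55, beside 0.93 with all 6 libraries (edgeR adjusted p of 0.0138 to 1). In the other 3 edgeR contrasts 0 of the 8 members were called under each alternative run. The members past 2-fold stayed at 0 for RE35 against NE35 and at 1 for RE55 against NE55 under each alternative. Between stages, in alternatives chosen after seeing the data, the members past 2-fold numbered 5 with total counts or RPKM and 1 otherwise for NE90 against NE35, 1 with total counts or RPKM and 0 otherwise for RE90 against RE35, and 4 for NE90 against NE55, with 2 after the length correction and 6 with total counts. COL6A1 between RE and NE ranged from 0.53 to 0.87 over its alternatives, with adjusted p of 0.541 to 1 in edgeR or DESeq2. COL5A2 between 90 and 55 dg ranged from -1.51 to -0.42. Total counts moved the median of all genes from 0.08 to 0.39 for RE90 against NE90 and from -0.04 to -0.45 for NE55 against NE35, and for NE55 against NE35 4 members, not 6, were above 0. Called genes differed with the method and with the number of genes tested, 12805 with all libraries and the filter. Without the filter, over 18162 genes, edgeR called 310 higher and 378 lower between 55 and 35 dg (147 and 102 with it), 36 and 13 between 90 and 55 dg (0 and 0), 681 and 795 between 90 and 35 dg (497 and 429) and 5 and 49 between RE and NE (0 and 0). DESeq2, with 12176 to 18162 genes given an adjusted p, called 288 and 196, 31 and 13, 709 and 536, and 1 and 2 in the same contrasts. Leaving out a library, over 12447 to 12773 genes, gave 36 to 878 higher between 55 and 35 dg, 0 to 113 between 90 and 55 dg, 172 to 1207 between 90 and 35 dg and 0 to 15 between RE and NE.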
